A study of Rattus norvegicus with 16 samples.

Results

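The collagen chain genes were taken as every row whose symbol is Col, a number, a and a number. They numbered 44 of the 21021 genes in the tables. The tables hold RNA levels in the L3–L5 dorsal root ganglia of adult female Sprague-Dawley rats, with the ganglia of 1 rat on the implanted side as 1 sample. Rats received tumor cells in the left tibia (tumor cell implantation, TCI; Walker 256 mammary gland carcinoma cells) and were sampled on day 1, 7 or 14, with 4 samples per day. The 4 sham rats were injected with PBS in place of tumor cells per the sample labels, whereas the methods of the study name boiled tumor cells, and all sham ganglia were collected on day 14. The day of collection and the tumor therefore cannot be told apart for days 1 and 7. The rats are outbred and immune-competent, and the tumor grows in the bone and not in the ganglion. Levels are given in FPKM, fragments counted relative to transcript length and to all mapped fragments of the sample, so that levels of different genes can be set side by side.

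Collagens are proteins of the extracellular matrix in which chains from 1 or several genes wind into a helix. Fibrillar collagens (types I, II, III, V, XI, XXIV and XXVII) build the fibers of connective tissue, and in nerve and ganglion they lie between the cells and in the surrounding sheath, where fibroblasts and Schwann cells are known sources. Type IV collagen is the network of basement membranes, which coat Schwann cells, satellite glia and capillaries, and types VII, XV and XVIII lie at or beside basement membranes. Type VI collagen forms beaded microfilaments around cells from the chains of Col6a1 and Col6a2 joined with a longer chain such as that of Col6a3 or Col6a6. Fibril-associated collagens (types IX, XII, XIV, XVI and XIX to XXII) decorate the fibers, types VIII and X form short-chain networks, and types XIII, XVII, XXIII and XXV span the cell membrane. The 44 genes comprised 11 fibrillar, 9 basement membrane, 6 type VI, 3 short-chain, 9 fibril-associated and 4 transmembrane genes and 2 of other types (XXVI and XXVIII).

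Dorsal root ganglion identity was carried by the marker genes, as 10 sensory neuron markers summed to between 13904 and 17863 FPKM in the 14 samples tested. The replicate 3 of TCI day 7 held 23141 FPKM of 12 skeletal muscle markers, against 562.78 in sham replicate 4 and at most 23.01 in each of the other samples. It was left out of the comparisons by the study, as was replicate 2 of TCI day 1, in which 10 Schwann cell markers summed to 20659 FPKM against at most 13913 elsewhere. Both are given beside the values listed per sample and did not enter the means. Replicate 3 of TCI day 14 also stood apart within the collagens, as it was the lowest of its 4 samples in 29 of the 35 collagen genes tested. In it the collagens made up 0.106% of all FPKM, against 0.153% to 0.188% in sham and 0.163% to 0.274% in the other 6 samples of days 7 and 14 that were tested.

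The reference sequence upstream of a few of these genes is shown because the results turn on them. Col4a1 and Col4a2 lie head to head and kept a nearly fixed ratio, and Col6a1 and Col8a1 were among the 3 genes with the largest fold changes on day 7. The stretches are from RefSeq for the rat assembly GRCr8. The deposited tables name no build and give no coordinates. The first is the 76 bases between the transcription starts of Col4a1 and Col4a2, at chr16:84885521-84885596 on the plus strand. The other 2 are the 250 bases before the start of Col6a1, at chr20:11905440-11905689 on the plus strand, and of Col8a1, at chr11:56246532-56246781 on the plus strand. Each is written 5′ to 3′, and capitals mark GC boxes, searched as GGGCGG or its reverse complement CCGCCC.
Col4a1-Col4a2: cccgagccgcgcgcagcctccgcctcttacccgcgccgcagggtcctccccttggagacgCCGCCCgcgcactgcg
Col6a1: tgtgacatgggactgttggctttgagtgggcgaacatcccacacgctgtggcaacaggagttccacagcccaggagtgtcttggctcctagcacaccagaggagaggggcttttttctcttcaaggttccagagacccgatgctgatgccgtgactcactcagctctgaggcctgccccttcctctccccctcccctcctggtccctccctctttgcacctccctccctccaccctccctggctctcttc
Col8a1: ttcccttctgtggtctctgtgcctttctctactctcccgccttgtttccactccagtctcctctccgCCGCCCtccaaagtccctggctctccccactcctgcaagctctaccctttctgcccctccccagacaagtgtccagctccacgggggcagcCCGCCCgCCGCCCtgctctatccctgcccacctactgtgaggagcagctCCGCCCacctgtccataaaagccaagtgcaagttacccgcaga

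The stretch between Col4a1 and Col4a2 was 78.9% G or C and held 1 GC box, the Col8a1 window held 4 and the Col6a1 window none. Of the 44 collagen genes 35 had an upstream window of 250 bases, and 19 of these (54.3%) held a GC box on either strand, against 32.4% of 27457 windows of all genes. A CCAAT box (CCAAT or ATTGG) was in 11 of 35 (31.4%) against 34.3%, and a TATA box (TATAAA or TTTATA) in 4 of 35 (11.4%) against 13.1%. Matches of different motifs may overlap and were counted separately, and a match describes the letters only. The other type IV pairs also lie head to head, with 412 bases between the starts of Col4a3 and Col4a4 and 1414 between those of Col4a5 and Col4a6. Col4a3 over Col4a4 ranged more widely, from 0.387 to 0.875 in the 14 samples tested, at levels of at most 0.46 and 0.94 FPKM. Whether the layout of a pair bears on its ratio was not tested.

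Fibrillar genes supplied most of the collagen RNA. In sham ganglia the 44 genes summed to 747 ± 70.3 FPKM (SD, n = 4), of which the fibrillar genes gave 457.5 FPKM on average. The basement membrane genes summed to between 117 and 132 FPKM and the type VI genes to 50.5 ± 4.18 FPKM. On TCI day 7 the type VI sum was 128 ± 30.4 FPKM (n = 3) and on day 14 99.2 ± 35.8 FPKM (n = 4). The fibrillar sum was 434 to 800 FPKM on day 7 and 269 to 602 FPKM on day 14, which overlapped the sham range of 399 to 522 FPKM. The type VI genes made up 6.42% to 7.05% of collagen FPKM in sham and 6.81% to 8.62% on day 1. Their share was 10.4% to 13.2% on day 7 and 10.7% to 13.1% on day 14, so that the samples of days 7 and 14 lay above every sham sample. This includes replicate 3 of day 14, whose fibrillar sum was the lowest of all. The left-out samples of days 1 and 7 had type VI sums of 86.98 and 179.56 FPKM, with shares of 8.20% and 20.6%. In bulk tissue, fewer cells of a type and less RNA per cell cannot be told apart.

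**Figure D1:**
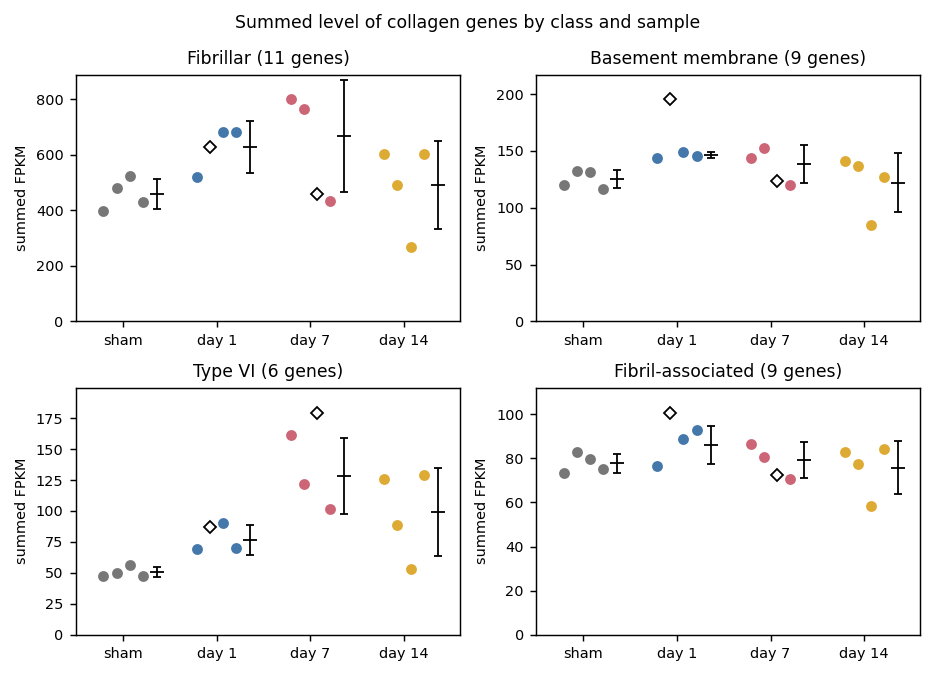
Summed FPKM of the fibrillar, basement membrane, type VI and fibril-associated genes in each sample, by group (horizontal axis), with the mean ± SD of the tested samples to the right of each group and the 2 samples left out as open diamonds. Type VI sums were 101.3 to 161.22 FPKM on day 7 against 47.4 to 56.4 in sham, while the fibrillar and basement membrane sums of day 7 overlapped sham.

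Not every collagen gene was expressed at a level that could be tested. Of the 44 genes, 35 reached 1 FPKM in 3 or more of the 14 samples and were tested with limma among 14023 genes, with p-values adjusted over all 14023 by the Benjamini-Hochberg method. The 9 others were Col4a3, Col4a4, Col4a6, Col6a4, Col7a1, Col10a1, Col17a1, Col19a1 and Col25a1. The highest value of any of them was 1.12 FPKM, for Col19a1 in 1 sample. Fold changes are on the log2(FPKM + 1) scale, which understates the change of low genes.

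On day 7 single collagen chains were called as up-regulated, and in no class were all tested genes called. On TCI day 7 against sham, 7 of the 35 tested genes were up-regulated at an adjusted p of at most 0.05, and the background over all tested genes was 14.5%. The 7 were Col6a1, Col6a2, Col6a6, Col8a1, Col16a1, Col5a2 and Col22a1, of which Col22a1 reached 1 FPKM in no sham sample and so entered the test only through TCI samples. None of the 35 was down-regulated, against a background of 3.45%, and Col14a1 was the single gene lower at an unadjusted p under 0.05. With the cut-off of the study, a log2 fold change of at least 1 and an adjusted p of at most 0.001, 0 collagen genes passed, and 1.83% of all genes did. The study applied this cut-off with another method and called more genes, so these counts are not its own result. By class, 3 of 5 tested type VI genes, 1 of 2 short-chain, 2 of 8 fibril-associated, 1 of 11 fibrillar and 0 of 5 basement membrane genes were called. A gene that was not called may still have changed. All 5 tested type VI genes had a positive log2 fold change, as did 24 of the 35 and 60.25% of all tested genes. The median log2 fold change was 0.23 over the 35 and 0.04 over all tested genes, and 15 of the 35 had an unadjusted p under 0.05, as did 31.2% of all tested genes. The groups did not overlap for 11 genes that were higher, against 23.8% of all genes, and for 3 that were lower, against 10.1%. The 7 calls were 3 without sham replicate 1, TCI day 7 replicate 1 or replicate 2, 4 without sham replicate 3 or 4, and 11 without TCI day 14 replicate 3, which added Col1a2, Col3a1, Col15a1 and Col18a1.

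On TCI day 14 against sham, 4 of the 35 were up-regulated at an adjusted p of at most 0.05, against 11.9% of all tested genes. These were Col6a1, Col6a2 and Col6a6 and also Col22a1, which entered the test only through TCI samples. None was down-regulated, against 3.21%, while Col14a1 and Col4a1 were lower at an unadjusted p under 0.05. None passed the cut-off of the study, which 0.642% of all genes did. The groups did not overlap for Col6a2 and for Col22a1, with the same limit, both higher, against 13.8% of all genes higher and 5.38% lower. The median log2 fold change was 0.05 over the 35 and 0.03 over all tested genes. The 4 calls were 1 without sham replicate 1, 2 or 4 or TCI day 14 replicate 1, and 2 without sham replicate 3 or TCI day 14 replicate 2 or 4.

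On TCI day 1 against sham no collagen gene was called by limma at either threshold, and neither was any gene of the 14023, so that the background was 0% higher, 0% lower and 0% with the cut-off of the study. At an unadjusted p under 0.05 there was 1 collagen gene, Col6a2, and 5.23% of all genes. The median log2 fold change of the 35 was 0.20 against 0.000899 over all tested genes, and 29 of the 35 had a positive value against 50.3% of all genes. The groups did not overlap for 7 collagen genes that were higher (6.17% of all genes), namely Col1a2, Col4a1, Col4a2, Col6a1, Col6a2, Col8a2 and Col15a1, and for Col12a1, which was lower (5.73%). The sum of 10 Schwann cell markers was 12519 to 13913 FPKM on day 1 and 8447 to 11297 FPKM in sham, without overlap, while 0 of the 10 were called, and its part in the collagen values was not tested.

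Between TCI days 14 and 7, no collagen gene was called by limma at either threshold. The background was 0.00713% higher, 0.0927% lower and 0.0143% with the cut-off of the study. The median log2 fold change of day 14 minus day 7 was -0.20 over the 35 and -0.02 over all tested genes, and 4 of the 35 had an unadjusted p under 0.05 against 9.96% of all. Without TCI day 7 replicate 4, 1 gene, Col8a1, was called lower.

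**Figure D2:**
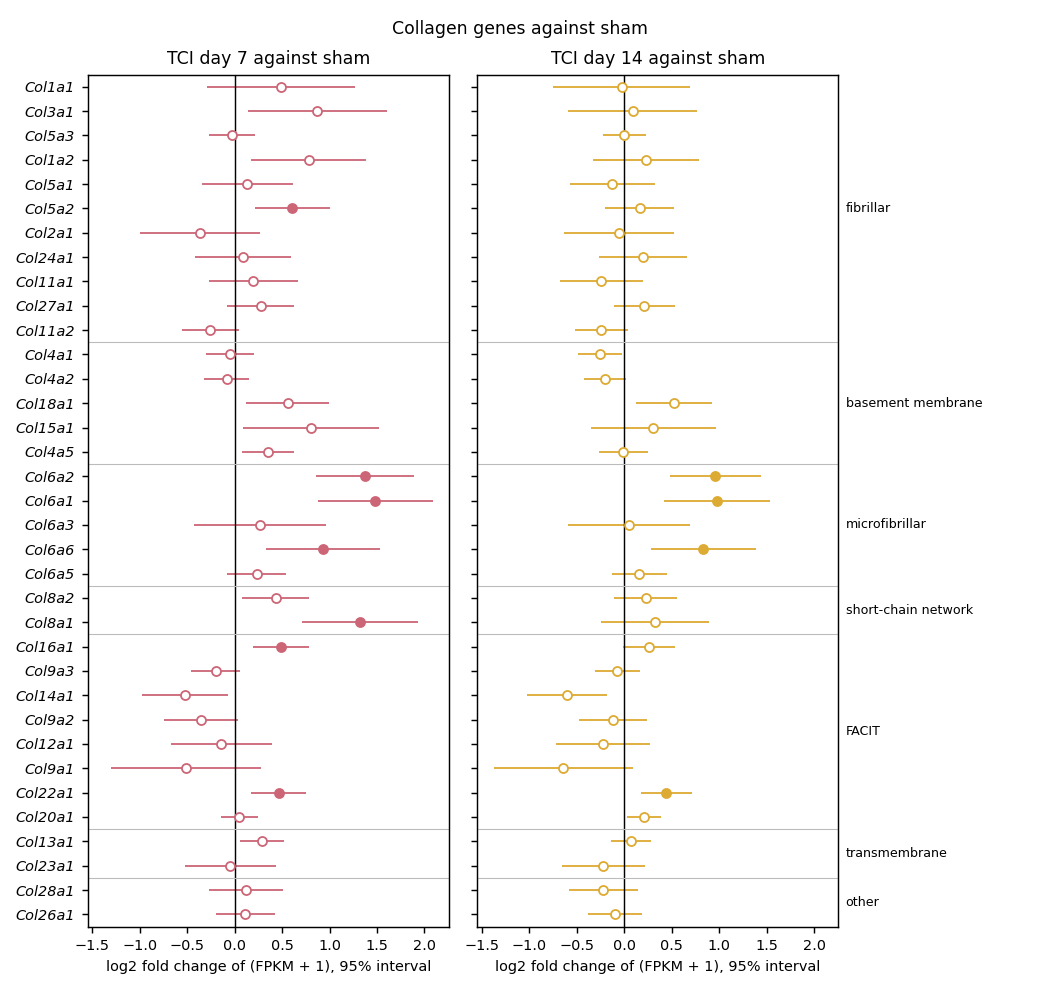
Log2 fold change of log2(FPKM + 1) against sham for the 35 tested collagen genes (rows, by class and by mean level within a class) on TCI day 7 (left) and day 14 (right), with 95% intervals from limma. Filled points had an adjusted p of at most 0.05, of which there are 7 on day 7 and 4 on day 14, and all of them lie to the right of 0.

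The smallest adjusted p-values on days 7 and 14 belonged to type VI chains. Col6a1, which encodes the α1 chain present in every type VI molecule, was at 15.99, 17.21, 20.24 and 16.98 FPKM in sham and at 23.16, 31.84 and 26.36 on day 1. It was at 65.91, 49.78 and 39.97 FPKM on day 7 and at 48.79, 33.75, 18.51 and 51.27 on day 14, with 29.24 in the left-out sample of day 1 and 79.36 in that of day 7. All samples of day 7 exceeded every sham sample, and on day 14 only replicate 3 fell within the sham range. The log2 fold change was 1.48 (SE 0.28, adjusted p = 0.00285) on day 7 and 0.98 (SE 0.26, adjusted p = 0.0232) on day 14, with 2.95-fold and 2.16-fold ratios of the mean FPKM. The day 7 call was kept in 24 of 24 alternatives and the day 14 call in 18 of 24. With all 16 samples, which include replicate 3 of day 7 with its muscle markers, the day 7 value was 1.64 (adjusted p = 0.000565).

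Col6a2 encodes the α2 chain, the other partner present in every molecule. It was at 23.65, 21.33, 25.69 and 19.79 FPKM in sham, at 35.91, 46.42 and 33.97 on day 1, and at 78.49, 56.00 and 48.89 on day 7. On day 14 it was at 58.13, 41.66, 27.31 and 60.41 FPKM, and the left-out samples of days 1 and 7 had 45.73 and 75.73. Every TCI sample, also those of day 1, lay above every sham sample. The log2 fold change was 1.37 (SE 0.24, adjusted p = 0.00167) on day 7 and 0.96 (SE 0.22, adjusted p = 0.0115) on day 14, and both calls were kept in 24 of 24 alternatives. On day 1 it was 0.75 (SE 0.24, adjusted p = 0.793), which did not pass. With all 16 samples the day 7 value was 1.46.

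The longer chains of type VI differed in whether they passed, and the difference between them was not tested. Col6a6, the α6 chain, was at 1.76, 2.26, 2.35 and 2.36 FPKM in sham, at 3.33, 3.22 and 2.29 on day 1 and at 6.05, 4.89 and 4.29 on day 7. It was at 6.03, 4.81, 1.88 and 7.70 FPKM on day 14, with 2.66 and 10.24 in the left-out samples of days 1 and 7. Day 7 did not overlap sham and day 14 did, through replicate 3. The log2 fold change was 0.93 (SE 0.28, adjusted p = 0.0353) on day 7 and 0.83 (SE 0.26, adjusted p = 0.0456) on day 14, called in 14 of 23 and in 5 of 23 alternatives. Col6a3, which encodes the large α3 chain of the common type VI molecule, was at 5.398 ± 1.367 FPKM in sham (n = 4) and at 6.79 ± 2.24 on day 7 (n = 3). Its log2 fold change on day 7 was 0.27 with a 95% interval of -0.43 to 0.96 (adjusted p = 0.622), an interval that holds the value of Col6a6. Col6a5 was at 2.61 ± 0.27 FPKM in sham and 3.24 ± 0.54 on day 7 (adjusted p = 0.310), and Col6a4 did not reach 1 FPKM in any of the 14 samples.

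**Figure D3:**
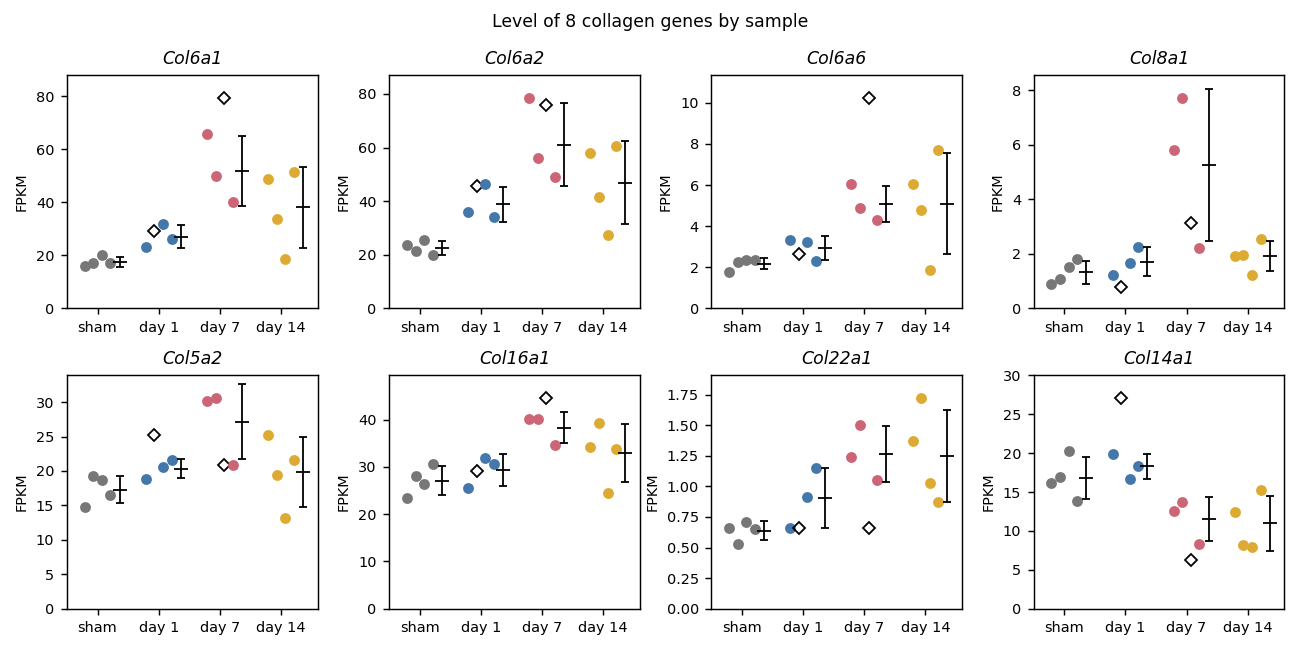
FPKM of 8 collagen genes in each sample by group, with the mean ± SD of the tested samples to the right of each group and the 2 samples left out as open diamonds. Shown are the 7 genes up-regulated on day 7 and Col14a1, whose day 7 samples (8.29 to 13.72 FPKM) lay below the sham samples (13.81 to 20.32).

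Ratios between chains within a sample do not depend on how much of the RNA was collagen. They were chosen with these values known and are given without a test. Col4a1 over Col4a2 lay between 1.398 and 1.645 in all 14 samples, while the level of Col4a1 ranged from 36.86 to 68.51 FPKM. The left-out samples had 1.52 and 1.58, though Col4a1 was at 94.78 FPKM in the first. Col6a1 over Col6a2 lay between 0.645 and 0.889, with 0.639 and 1.048 in the left-out samples of days 1 and 7. Col6a1 over Col1a1 was 0.109 to 0.120 in sham, 0.101 to 0.132 on day 1, against day 7 values of 0.192 to 0.309 and day 14 values of 0.205 to 0.270, so that no sample of days 7 or 14 overlapped sham or day 1. Replicate 3 of day 14, within the sham range for Col6a1 itself, had 0.270. For this ratio the left-out samples of days 1 and 7 had 0.133 and 0.525. Col6a3 over Col6a1 has Col6a1 as its denominator, so it falls when Col6a1 rises and Col6a3 does not. Sham samples spanned 0.213 to 0.370, which overlapped the 0.198 to 0.218 of day 1 samples. The range was 0.106 to 0.168 for day 7 samples and 0.125 to 0.187 for day 14 samples, below every sham sample. The mean level of Col6a3 itself was not lower, with 5.40 FPKM for sham, 6.79 for day 7 and 6.005 for day 14.

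**Figure D4:**
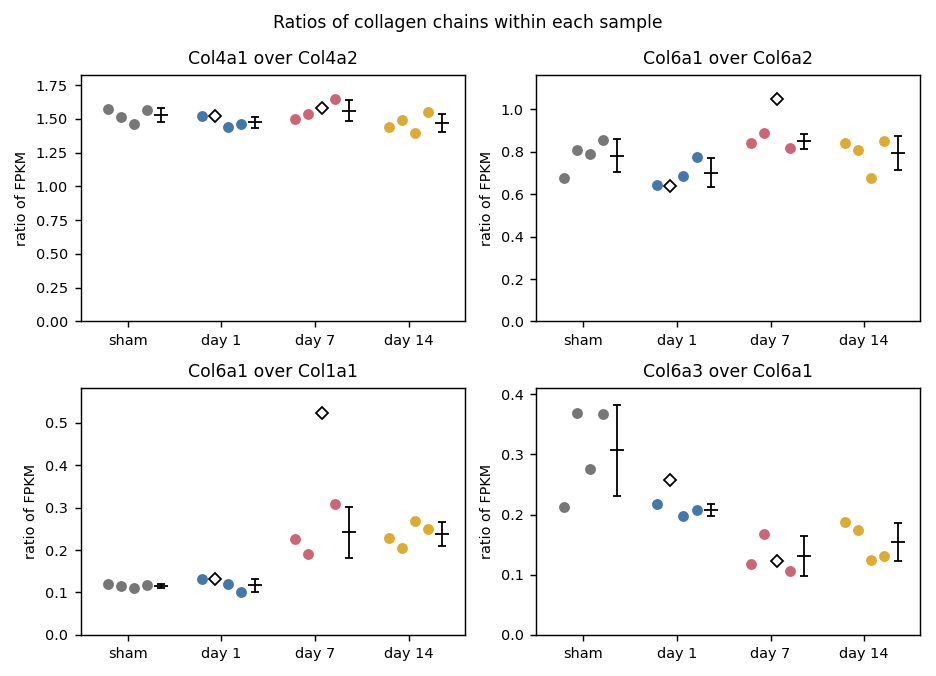
Ratio of FPKM of 2 collagen genes within each sample, by group, with the mean ± SD of the tested samples and the 2 samples left out as open diamonds. Col4a1 over Col4a2 stays between 1.398 and 1.645 in the 14 tested samples, whereas Col6a1 over Col1a1 is at most 0.132 in the tested samples of sham and day 1 and at least 0.192 on days 7 and 14.

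Of the fibrillar genes, Col5a2 alone was called. Col5a2, a chain of type V collagen, which nucleates type I fibers, was at 14.83, 19.22, 18.66 and 16.51 FPKM in sham and at 18.85, 20.63 and 21.58 on day 1. It was at 30.10, 30.56 and 20.84 FPKM on day 7 and at 25.27, 19.43, 13.24 and 21.60 on day 14, with 25.25 and 20.94 in the left-out samples of days 1 and 7. The log2 fold change on day 7 was 0.61 (SE 0.18, adjusted p = 0.0334), called in 17 of 24 alternatives. Col5a1, its partner chain, had 0.13 (95% interval -0.35 to 0.61, adjusted p = 0.738), and Col5a1 over Col5a2 was 1.17 to 1.26 in sham and 0.802 to 0.959 on day 7. Col5a3, the type V chain with the highest level, was at 86.75, 100.31, 87.58 and 77.89 FPKM in sham, at 87.18, 111.81 and 104.12 on day 1, at 95.64, 88.95 and 74.81 on day 7 and at 91.53, 80.72, 79.72 and 100.27 on day 14. It was at 101.23 and 60.62 FPKM in the left-out samples. Its groups overlapped on every day, and its day 7 value was -0.03 (95% interval -0.28 to 0.22).

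The major fiber chains were higher on average on day 7 but 1 sample set them apart. Col1a1, the α1 chain of type I and the most abundant collagen gene, was at 133.85, 150.45, 185.05 and 144.65 FPKM in sham and at 176.11, 267.05 and 261.03 on day 1. It was at 292.45, 259.66 and 129.52 FPKM on day 7 and at 214.49, 165.03, 68.62 and 204.49 on day 14, with 220.10 and 151.26 in the left-out samples of days 1 and 7. Replicate 4 of day 7 lay below every sham sample and the other 2 above every one, and the log2 fold change was 0.49 (95% interval -0.29 to 1.27, adjusted p = 0.393). Col1a2, the α2 chain of type I, was at 18.51, 20.82, 24.27 and 25.86 FPKM in sham, at 27.83, 28.64 and 29.77 on day 1, at 46.99, 48.47 and 25.67 on day 7 and at 36.20, 31.69, 13.76 and 29.42 on day 14. The left-out samples had 35.84 and 30.91 FPKM. Its day 7 value was 0.78 (95% interval 0.18 to 1.39, adjusted p = 0.0730), which did not pass. Col3a1, of type III in finer, more pliable fibers, was at 95.52, 126.06, 144.62 and 121.63 FPKM in sham, at 142.82, 186.41 and 199.41 on day 1, at 270.71, 285.94 and 139.87 on day 7 and at 174.41, 137.61, 61.48 and 183.16 on day 14. It had 182.24 and 155.01 FPKM in the left-out samples, and its day 7 value was 0.87 (95% interval 0.14 to 1.60, adjusted p = 0.0970). Without replicate 4 of day 7, Col1a2 (1.07) and Col3a1 (1.20) passed, and so did Col15a1 (1.18) and Col18a1 (0.73).

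The ratio of the type III chain to type I was higher in the day 7 samples, although neither chain was called. Col3a1 over Col1a1 was 0.714 to 0.841 in sham and 0.926 to 1.10 on day 7, without overlap, and 0.813 to 0.896 on day 14. Col1a1 over Col1a2 spanned 4.99 to 9.32 over the 14 samples, wider than the ratio of the type IV pair, though both chains belong to the same molecule. The other fibrillar genes, among them Col2a1 and Col11a1, better known from cartilage, did not pass. Col2a1 was at 19.7 ± 5.41 FPKM in sham and 14.7 ± 2.06 on day 7, and 10 bone and cartilage markers summed to between 8.28 and 12.3 FPKM in the 14 samples.

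None of the 5 tested basement membrane genes was called on any day in the 14 samples. With all 16, which include replicate 3 of day 7 with its muscle markers, Col4a5 (0.39, adjusted p = 0.0407) and Col18a1 (0.54, adjusted p = 0.0427) passed on day 7. Col4a1 was at 59.17, 63.67, 60.65 and 56.18 FPKM in sham, at 68.51, 67.36 and 68.07 on day 1, at 54.91, 61.92 and 56.21 on day 7 and at 57.13, 51.99, 36.86 and 56.47 on day 14. Col4a2, its partner in the common type IV molecule, was at 37.65, 42.09, 41.52 and 35.84 FPKM in sham, at 45.12, 46.73 and 46.52 on day 1, at 36.55, 40.28 and 34.16 on day 7 and at 39.65, 34.81, 26.36 and 36.48 on day 14. The day 1 samples of both genes lay above every sham sample, without a call (log2 fold changes 0.18 and 0.23, adjusted p = 0.974 and 0.939). On day 7 the values were -0.05 (95% interval -0.31 to 0.20) for Col4a1 and -0.08 (95% interval -0.32 to 0.15) for Col4a2, intervals that hold no change of the size seen in Col6a1. Replicate 2 of day 1, left out, had 94.78 FPKM of Col4a1 and 62.29 of Col4a2, and replicate 3 of day 7 had 52.37 and 33.17. Col4a5, a type IV chain of low level, was at 0.95, 1.25, 0.85 and 0.95 FPKM in sham, at 0.85, 0.63 and 1.03 on day 1, at 1.34, 2.10 and 1.26 on day 7 and at 1.21, 1.03, 0.76 and 0.95 on day 14. The left-out samples had 1.25 and 1.85 FPKM. Its day 7 samples lay just above sham without overlap, and the log2 fold change was 0.35 (adjusted p = 0.0802).

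The collagens beside the basement membrane were higher on average on day 7 and missed the threshold. Col18a1, source of the fragment endostatin, was at 13.15, 14.37, 16.09 and 14.41 FPKM in sham, at 15.24, 18.03 and 17.27 on day 1, at 24.96, 24.20 and 16.99 on day 7 and at 24.52, 30.96, 14.30 and 18.50 on day 14. The left-out samples had 18.03 and 20.91 FPKM. Day 7 did not overlap sham, and the log2 fold change was 0.56 (SE 0.20, adjusted p = 0.0760), with 0.52 (adjusted p = 0.0785) on day 14. Col15a1, found where basement membrane meets connective tissue, was at 8.70, 9.79, 11.39 and 8.56 FPKM in sham, at 12.87, 15.54 and 11.86 on day 1, at 23.74, 22.10 and 9.97 on day 7 and at 16.70, 16.44, 5.53 and 13.35 on day 14, with 18.30 and 13.22 in the left-out samples. Its day 7 value was 0.81 (SE 0.33, adjusted p = 0.114), and replicate 4 of day 7 lay within the sham range.

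Col8a1, a short-chain collagen known from vessel walls and from the membrane beneath the corneal endothelium, rose on day 7. It was at 0.90, 1.08, 1.51 and 1.83 FPKM in sham, at 1.22, 1.66 and 2.26 on day 1, at 5.81, 7.72 and 2.22 on day 7 and at 1.92, 1.96, 1.24 and 2.56 on day 14. The left-out samples of days 1 and 7 had 0.77 and 3.12 FPKM. Replicates 1 and 2 of day 7 stood above every other sample, and replicate 4 lay above sham but within days 1 and 14. The log2 fold change was 1.32 (SE 0.28, adjusted p = 0.00608), kept in 23 of 23 alternatives, with a 3.95-fold ratio of the mean FPKM. On day 14 the value against sham was 0.32 (95% interval -0.24 to 0.89), and day 14 minus day 7 was -0.9996 (SE 0.28, adjusted p = 0.247). Col8a2, its partner in type VIII, had 0.43 on day 7 (adjusted p = 0.0903), and its day 7 samples did not overlap sham.

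Among fibril-associated collagens, Col16a1 and Col22a1 were called. Col16a1 was at 23.36, 28.07, 26.39 and 30.56 FPKM in sham, at 25.48, 31.82 and 30.54 on day 1, at 40.14, 40.17 and 34.64 on day 7 and at 34.29, 39.36, 24.45 and 33.68 on day 14. The left-out samples had 29.23 and 44.51 FPKM. Its log2 fold change on day 7 was 0.49 (SE 0.14, adjusted p = 0.0254), called in 20 of 24 alternatives, and 0.26 on day 14 (adjusted p = 0.190). Col22a1, known from the junction of muscle and tendon, was at 0.66, 0.53, 0.71 and 0.65 FPKM in sham, at 0.66, 0.91 and 1.15 on day 1, at 1.24, 1.50 and 1.05 on day 7 and at 1.37, 1.72, 1.03 and 0.87 on day 14, with 0.66 in both left-out samples. It had a log2 fold change of 0.46 on day 7 (adjusted p = 0.0284) and 0.44 on day 14 (adjusted p = 0.0285). It reached 1 FPKM in no sham sample and so was tested only because TCI samples did, and its call was kept in 15 of 23 alternatives on day 7 and in 14 of 23 on day 14. Under quantile normalization neither was kept (0.19 and 0.22).

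Col14a1, which binds the surface of type I fibers, came nearest to a call in the lower direction on both later days. It was at 16.21, 16.97, 20.32 and 13.81 FPKM in sham, at 19.93, 16.67 and 18.35 on day 1, at 12.63, 13.72 and 8.29 on day 7 and at 12.43, 8.26, 7.97 and 15.32 on day 14, with 27.07 and 6.30 in the left-out samples of days 1 and 7. Day 7 did not overlap sham (log2 fold change -0.52, SE 0.21, adjusted p = 0.107), and day 14 overlapped it through replicate 4 (-0.61, SE 0.19, adjusted p = 0.0530). Neither passed here, whereas the day 7 value passed with all 16 samples (-0.71, adjusted p = 0.0458) and both passed under quantile normalization (-0.60 and -0.65). Quantile normalization moved the median over all genes from 0.04 to -0.07 on day 7, and all called collagens but Col22a1 remained higher on that day. Col9a3, a type IX chain known from cartilage, was at 20.58, 22.50, 19.73 and 20.37 FPKM in sham, at 18.91, 23.10 and 25.88 on day 1, at 18.97, 15.68 and 19.40 on day 7 and at 22.66, 17.96, 16.67 and 22.18 on day 14. It had 28.30 and 12.70 FPKM in the left-out samples, and its day 7 value was -0.20 (adjusted p = 0.278). Col28a1, a type XXVIII chain found around peripheral glia, was at 19.39, 19.67, 19.50 and 20.48 FPKM in sham, at 18.84, 20.07 and 20.56 on day 1, at 23.13, 22.90 and 18.79 on day 7 and at 23.25, 11.09, 14.71 and 20.88 on day 14, with 23.39 and 17.72 in the left-out samples. Its sham samples spanned 19.39 to 20.48 FPKM and its day 14 samples 11.09 to 23.25 FPKM, and no comparison passed.

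Markers of fibroblasts, the best known source of fibrillar and type VI collagen, were mostly higher on day 7. Their sum overlapped sham on days 1 and 14. The summed level of 8 fibroblast markers was 105.88 to 116.67 FPKM in sham and 110.45 to 125.94 on day 1. It was 184.35 to 201.18 FPKM on day 7 and 99.25 to 141.09 on day 14, with 150.88 and 162.58 in the left-out samples of days 1 and 7. Of the 8 markers, 6 were up-regulated on day 7 and 3 on day 14, against 14.5% and 11.9% of all genes. Among them Fbln1, which encodes the matrix protein fibulin 1, was at 7.05 FPKM in sham and 31.9 on day 7 (log2 fold change 2.04, adjusted p = 2.61e-06). Per unit of the summed fibroblast markers, Col6a1 was 0.148 to 0.191 in sham and 0.199 to 0.338 on day 7, without overlap, and 0.187 to 0.363 on day 14, with replicate 3 inside the sham range. Col1a1 per unit of the same sum was 1.25 to 1.75 in sham and 0.644 to 1.499 on day 7. Most of this sum was Abca8a, at 79.16 FPKM in sham, 96.24 on day 7 and 65.84 on day 14. By limma Abca8a was not called (log2 fold change 0.28 and -0.28, adjusted p = 0.12 and 0.10), whereas the median of the 8 on day 7 was 1.08. Both ratios therefore mostly reflect Abca8a, and ratios to the other markers were not computed. In replicate 4 of day 7 the markers were at their highest, 201.18 FPKM, and Col1a1 at 129.52 FPKM. The 8 fibroblast markers include no collagen gene and no gene of the partner lists, and none of them was at 0. Of 10 macrophage markers, 10 were up-regulated on day 7 and 9 on day 14, against the same 14.5% and 11.9%, with sums of 30.46 to 56.39 FPKM in sham, 327.21 to 448.46 on day 7 and 168.39 to 618.87 on day 14. One of them, Itgam, was at 0.475 ± 0.110 FPKM in sham and 3.7 on day 7, and entered the test only through TCI samples. Of 10 sensory neuron markers, 5 were down-regulated on day 7 and 4 on day 14, against 3.45% and 3.21% of all genes, with sums of 16924 to 17863 FPKM in sham and 14197 to 14985 on day 7. Of 9 pericyte and smooth muscle markers and of 10 endothelial markers, 2 each were up-regulated on day 7, against 14.5% of all genes, and 0 on day 14. The part of these shifts in the collagen values was not tested.

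**Figure D5:**
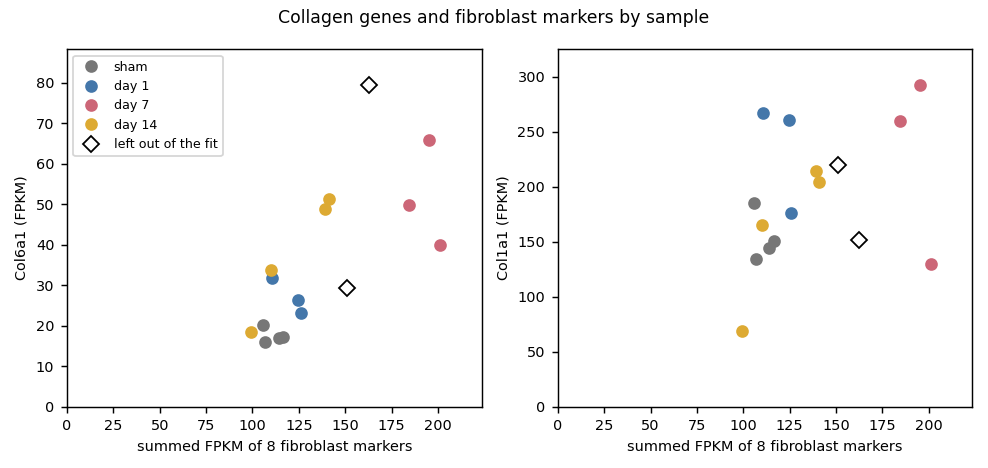
FPKM of Col6a1 (left) and Col1a1 (right) against the summed FPKM of 8 fibroblast markers in each sample, colored by group, with the 2 samples left out as open diamonds. The tested day 7 samples lie at marker sums of 184 to 201 FPKM with Col6a1 between 39.97 and 65.91, while Col1a1 in the same samples spans 129.52 to 292.45.

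Small leucine-rich proteoglycans, which bind collagen fibers and set their spacing, were mostly higher on day 7. Of 8 tested, 6 were up-regulated on day 7 and 3 on day 14, against 14.5% and 11.9% of all genes, and none was down-regulated. The median log2 fold change of the 8 on day 7 was 1.14, against 0.04 over all tested genes. Decorin (Dcn) was at 156 ± 29.2 FPKM in sham and 514 ± 70.6 on day 7 (log2 fold change 1.73, SE 0.27, adjusted p = 0.00096), and at 316 on day 14 (0.93, adjusted p = 0.0257). Osteomodulin (Omd) went from 1.42 to 4.51 FPKM (1.17, adjusted p = 0.000291) and osteoglycin (Ogn) from 14.6 to 33.3 FPKM (1.13, adjusted p = 0.000136) between sham and day 7, and these 3 also passed the cut-off of the study.

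The enzymes and chaperones that fold, trim and cross-link collagen were called in part on day 7. Of 28 tested, 11 were up-regulated, against 14.5% of all genes, and 1, the glycosyltransferase Colgalt2, was down-regulated, against 3.45%. Adamts14, among the 11, was at 0.89 ± 0.0216 FPKM in sham and entered the test only through TCI samples. Lox, which cross-links collagen and elastin, was at 1.94 ± 0.62 FPKM in sham and 6.24 ± 0.91 on day 7 (log2 fold change 1.32, SE 0.20, adjusted p = 0.000759), and was the 1 member past the cut-off of the study. On day 14, 2 were up-regulated (Ppib and Fkbp10), against 11.9% of all genes, and 2 down-regulated (P4ha1, a subunit of prolyl 4-hydroxylase, and Colgalt2), against 3.21%. These genes below the cut-off, and others named for small counts here, were named after their values were seen.

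Of 7 tested collagen receptors, 3 were up-regulated on day 7, namely Mrc2, Ddr2 and Cd36, and 2 on day 14, Mrc2 and Ddr2, against 14.5% and 11.9% of all genes. Mrc2, an endocytic receptor through which cells take up collagen, was at 2.55 ± 0.50 FPKM in sham and 6.76 ± 1.30 on day 7 (log2 fold change 1.12, adjusted p = 0.000204) and at 4.66 on day 14 (0.68, adjusted p = 0.00403).

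Of 13 tested laminin, nidogen and other partners of the basement membrane collagens, 2 were up-regulated on day 7, a share near the 14.5% of all genes. These were Lamb2, the laminin β2 chain (25.03 to 39.89 FPKM, log2 fold change 0.66, adjusted p = 0.00464), and Agrn, agrin (14.3 to 17.9 FPKM, 0.31, adjusted p = 0.0107). Agrn alone was called on day 14 (0.38, adjusted p = 0.00313). Of 11 tested genes of the TGF-β pathway, a known inducer of collagen genes, 4 were up-regulated on day 7 (Tgfb1, Ltbp1, Tgfbr2 and Ctgf), against 14.5% of all genes, and Tgfb3 was down-regulated, against 3.45%. On day 14 Tgfb1 and Tgfbr2 were up-regulated, 2 of 11 against 11.9% of all genes. Tgfb1 was at 4.80 ± 0.91 FPKM in sham and 17.4 ± 3.93 on day 7 (log2 fold change 1.65, adjusted p = 0.0011), and Ltbp1, which anchors latent TGF-β in the matrix, at 1.68 and 3.94 FPKM (0.88, adjusted p = 0.00514). No gene of the 5 partner lists was called on day 1 or between days 14 and 7 by limma at an adjusted p of at most 0.05.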

How the data were processed

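RNA was measured in 16 samples, 4 per group. Reads of low quality were discarded by the authors, who mapped the rest with HISAT and Bowtie2 (the labels also list CASAVA 1.4), quantified genes with RSEM and deposited FPKM rounded to 2 decimals, 1 table per sample. The methods name the BGISEQ-500 platform and the labels Illumina protocols. The genome build is not given in the sources used here. The FPKM tables hold no read totals, so no counting error was computed for a value. Steps between the lowest values of 23 genes, with 4 to 11 genes per sample, put the relative depth of the samples between 0.918 and 1.08. Only values within 1.35 times the lowest of a gene entered, so this estimate stays near 1 and cannot show a large difference in depth. Any 2 samples had at most 2.59% of their values in common.

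From the deposited FPKM, log2(FPKM + 1) of 14 samples and all 4 groups entered 1 fit in limma 3.58.1 (R 4.3.3, lmFit and eBayes with an intensity trend), for genes that reached 1 FPKM in 3 or more samples. Benjamini-Hochberg adjustment ran over all genes tested. Each sample is 1 rat, so a p-value weighs a difference between groups against the spread between rats. That spread was estimated within the 4 groups together and moderated across all genes tested. The same steps were tested on simulated data.

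The collagen genes, their classes and the partner and marker lists were chosen with earlier results of these data known. Values per sample are given for the 4 genes with the highest mean in the fibrillar and in the basement membrane class, the 6 highest of the other classes and every collagen gene called. Of partner lists, genes past the cut-off of the study were named, or else the 2 with the largest called change on day 7. Ogn is listed for 2 gene identifiers, and the one with the higher level was used. All 44 symbols were found in the RefSeq table of assembly GRCr8. Plots used matplotlib 3.10.9 (Python 3.11.15). Alternatives covered the samples, variance trend, sample weights, scaling, filter, pseudocount (0.1), replicate block and leaving out each sample.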

Additional observations from a re-analysis of the deposited data

Results flagged for a closer look

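In 72 checks of 18 collagen genes within a group of 4 samples, 3 had 1 sample far from the other 3, and chance flags about 1 in 20 such groups. Col4a1 was at 94.78 FPKM in replicate 2 of TCI day 1 against 67.36 to 68.51 in the other 3 samples of that day. Col4a2 was at 62.29 FPKM in the same sample, against 45.12 to 46.73. Their ratio in that sample was 1.52, within the range of the others. That sample was left out of the comparisons. Col6a6 was at 1.76 FPKM in sham replicate 1, against 2.26 to 2.36 in the other 3 sham samples.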

How the results depend on the processing

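The alternative runs followed 44 genes, the tested collagens and the partners Lox, Mrc2, Dcn, Omd, Ogn, Lamb2, Agrn, Tgfb1 and Ltbp1. No called gene among these turned its direction in any run. Other called genes named in the report, such as Fbln1, Ppib and Colgalt2, were not followed. Over the 44 genes, 972 of 1029 values on day 7 and 977 of 1030 on day 14 stayed on the same side of the threshold. Most of these belong to genes without a call, as only 16 of the 44 were called on day 7 and 9 on day 14. A call was lost in 30 values on day 7 and in 39 on day 14, and gained in 27 and 14. The counts of collagen genes that moved by over 1.5 times follow, and the cause was not tested. With all 16 samples, 1 was lower on day 7, 2 passed the cut-off of the study on day 7 and 2 were higher on day 14. With only the 2 groups compared, 2 passed the cut-off on day 7 and 1 was higher on day 14. With array quality weights, 15 were higher and 1 lower on day 7, and 7 passed the cut-off on day 7 and 2 on day 14. Under quantile normalization 3 were lower on day 7, and 2 were higher and 2 lower on day 14, while the share of higher genes among all called genes went from 80.7% to 36.6% on day 7 and from 78.8% to 41.6% on day 14. With a mean of at least 5 FPKM, which tests fewer genes, 4 were higher on day 7 and 2 on day 14. With the replicate block 4 were higher on day 7. The replicate numbers mark different rats, and of 18 pairs of samples with the same number 4 had deviations correlated above 0.1 (median 0.0026), so the samples were not treated as paired. Leaving out 1 replicate at a time, the count on day 7 lay between 3 and 11 higher and between 0 and 2 past the cut-off. On day 14 it lay between 1 and 6 higher, 0 and 1 lower and 0 and 2 past the cut-off. Between days 14 and 7 it lay between 0 and 1 lower. Over all genes, calls on day 7 were 2028 higher and 484 lower, against 3228 and 1195 with array quality weights and 1341 and 2320 under quantile normalization. On day 14 they were 1670 and 450, against 934 and 194 with only the 2 groups, 1248 and 141 with all 16 samples and 1101 and 1547 under quantile normalization. FPKM without read totals limits what can be said of low genes such as Col22a1.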
